A study of Mus musculus with 8 samples.

Results

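The genes described are 10 feedback genes of the RAS-ERK pathway, chosen by name: the phosphatases Dusp4, Dusp5 and Dusp6, the Sprouty genes Spry1, Spry2 and Spry4, the Spred genes Spred1 and Spred2, and the Ets transcription factors Etv4 and Etv5. Every spot that is not a control and carries 1 of these symbols was taken. These were 12 probes, of which 11 for 9 genes were bright enough to be tested among 19778 genes in all. The remaining gene, Spry4, was well above background on 1 of 8 arrays.

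The RNA came from ovarian tumours of 8 female C57BL/6JTgMISIIR-TAg mice. In this transgenic line the SV40 T antigen is driven by the Amhr2 promoter, which is active in the female reproductive tract, so all tumours of both groups carry the oncogene. When tumours measured about 500 mm3, 4 mice received the vehicle alone (0.5% hypermellose with 0.1% Tween 80) and 4 received AZD1480, an inhibitor of the kinases JAK1 and JAK2, at 30 mg/kg in the same vehicle. Tumour tissue was collected 6 h later, and 1 one-colour Agilent array was hybridised per tumour. The animals' ages are not given in the sources used here. The comparison asks whether transcripts that report ERK signalling differ shortly after JAK inhibition.

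Growth factor receptors activate RAS, which starts a kinase cascade of RAF, MEK and ERK. Active ERK enters the nucleus and induces a small set of early genes, and many of these act back on the pathway. Dusp6 protein removes the activating phosphates from ERK in the cytoplasm, and Dusp4 and Dusp5 act in the nucleus. Sprouty and Spred proteins restrain signalling between the receptor and RAF. Etv4 and Etv5 belong to the PEA3 group of Ets factors and carry the response to further genes. Because these transcripts follow ERK activity closely, they are often read as a measure of its output. JAK kinases serve cytokine receptors and signal mainly through STAT proteins, but they can also engage the RAS-ERK cascade.

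The start-site regions of the 4 genes that the results without 1 array turn on (Dusp6, Etv5, Spred1 and Spred2), and of Dusp5 for its CArG boxes, show what sequence these genes carry upstream. Of the 10 genes, 7 had a start-site window in the RefSeq table of mouse build GRCm38.p6. Each run below is the 250 bases before the annotated start, 5′ to 3′ on the gene's strand. In the first 4 runs the capitals mark GGAA on either strand, the core of the sites that Ets factors such as Etv4 and Etv5 bind. They are Dusp6 at chr10:99262981-99263230 (plus strand), Etv5 at chr16:22438369-22438618 (minus strand), Spred1 at chr2:117120821-117121070 (plus strand) and Spred2 at chr11:19924192-19924441 (plus strand). In the last, Dusp5 at chr19:53528895-53529144 (plus strand), the capitals mark the CArG box, the site of serum response factor, which works with Ets factors of the ternary complex group.
Dusp6: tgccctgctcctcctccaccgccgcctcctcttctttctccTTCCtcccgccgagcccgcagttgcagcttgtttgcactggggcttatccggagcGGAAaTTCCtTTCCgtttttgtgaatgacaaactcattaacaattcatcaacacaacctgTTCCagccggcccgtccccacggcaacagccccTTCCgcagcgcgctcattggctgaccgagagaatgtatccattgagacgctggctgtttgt
Etv5: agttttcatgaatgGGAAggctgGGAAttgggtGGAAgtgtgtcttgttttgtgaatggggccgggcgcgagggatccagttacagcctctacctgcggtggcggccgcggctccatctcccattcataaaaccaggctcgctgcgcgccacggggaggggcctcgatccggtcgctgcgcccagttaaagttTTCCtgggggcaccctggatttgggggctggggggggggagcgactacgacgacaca
Spred1: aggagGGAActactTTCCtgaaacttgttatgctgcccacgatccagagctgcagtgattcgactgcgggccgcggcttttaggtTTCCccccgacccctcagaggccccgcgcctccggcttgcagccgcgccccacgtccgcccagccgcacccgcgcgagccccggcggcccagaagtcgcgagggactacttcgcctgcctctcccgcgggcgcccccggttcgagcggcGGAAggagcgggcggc
Spred2: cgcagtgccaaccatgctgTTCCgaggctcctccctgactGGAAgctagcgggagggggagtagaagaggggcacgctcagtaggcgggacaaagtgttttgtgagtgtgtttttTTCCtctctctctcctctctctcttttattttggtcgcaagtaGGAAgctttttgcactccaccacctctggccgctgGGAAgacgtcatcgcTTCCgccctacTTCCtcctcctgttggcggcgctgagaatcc
Dusp5: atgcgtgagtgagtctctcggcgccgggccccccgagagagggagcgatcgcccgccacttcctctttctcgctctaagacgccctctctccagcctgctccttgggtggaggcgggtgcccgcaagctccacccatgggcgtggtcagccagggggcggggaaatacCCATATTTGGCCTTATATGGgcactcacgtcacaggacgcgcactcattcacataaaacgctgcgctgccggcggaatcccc
The run of Spred2 holds 7 GGAA cores, that of Dusp6 holds 6, and those of Etv5 and Spred1 hold 4 each. Spry2 and Dusp5 have 3 each and Spry1 has 1. A second annotated start of Etv5, at chr16:22439571-22439820, has 0. So short a core is common: 93.4% of all 32851 windows hold it at least once in the same 250 bases, with a median of 3. The longer Ets sequence CCGGAAG was in 0 of the 8 windows read for the feedback genes and in 8.86% of all windows of 300 bases. The AP-1 sequence TGANTCA was in 0 of 8 against 7.81%, TGACGTCA in 0 of 8 against 1.79%, and the STAT sequence TTCNNNGAA in 0 of 8 against 8.30% of all windows. Both strands were read for each motif, and CCGGAAG contains the core. The Dusp5 window held 2 CArG boxes, CCATATTTGG and CCTTATATGG, with first bases 82 and 72 before the start. Only 1.63% of all windows hold a CArG box, and the other 7 windows read for these genes have 0. The searches for the core and for the CArG box were chosen after the sequences had been seen. A match describes the letters and does not show that a factor binds.

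Signals were read as log2 of the processed intensity minus the array's 75th percentile, so a value of 0 lies at that percentile. The 75th percentile was 4706 to 5795 on the slide holding replicates 1 and 2 of both groups, and 1587 to 2783 on the slide holding replicates 3 and 4. Between 66.9% and 76.4% of spots were well above background, and the number of arrays limits the precision. AZD1480 replicate 1 stood apart: its median correlation with the other arrays, over probes that are not controls, was 0.934, against 0.967 to 0.978 for the other 7. Its tissue markers also differed from the rest. All 9 tested ciliated cell markers had their lowest value there, with a mean log2 value of -5.04 relative to the vehicle mean, while the other AZD1480 arrays lay between -0.11 and 0.05. The macrophage markers were lowest there in 11 of 12 genes. The granulosa and luteal markers lay 3.15 above the vehicle mean, against -2.03 to -1.16 on the other AZD1480 arrays. AZD1480 replicate 1 was the highest array for 2 of the 6, Amhr2 and Inha, while Foxl2 did not stand out there (0.00 from the vehicle mean), and vehicle replicate 3 was higher for Hsd3b1 and Inhba. The difference of each tested feedback gene is therefore given with and without AZD1480 replicate 1. All 8 genes chosen as marks of ovarian tumour tissue, among them Pax8, Wt1 and Msln, and all 10 epithelial genes were bright enough to be tested. In AZD1480 replicate 1 these 2 lists had means of -1.25 and -1.04 relative to vehicle, with 4 genes of each at their lowest. The epithelial mean lay within the range of the other AZD1480 arrays, -1.22 to 0.00. The ovarian mean lay below their range, -0.88 to -0.34, and Ovgp1 read -3.52 there against a vehicle mean of 6.01. Of the ovarian genes, 2 had their highest value there, Amhr2 among them. The summed ovarian level (log2 of the summed scaled intensities) was 7.26, against 6.40 to 7.06 in vehicle tumours. Most of that sum in AZD1480 replicate 1 came from Amhr2, at 6.83, which is also in the granulosa and luteal list. The fibroblast markers (-1.31, 6 of 10 at their lowest) and the T cell markers (-1.09, 5 of 7 at their lowest) were lower in AZD1480 replicate 1 too.

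None of the 9 tested feedback genes differed between AZD1480 and vehicle tumours by limma with Benjamini-Hochberg adjustment over all genes, with all 8 arrays or without AZD1480 replicate 1. Over all genes the called share was also 0% in both fits. With all arrays, 4 genes were lower and 5 higher in the AZD1480 group, with a median log2 difference of 0.03 against 0.04 over all 19778 genes. At an unadjusted p under 0.05 limma found 0 of 9, where 3.46% of all genes lay. The groups did not overlap for 0 of 9, against 2.62% of all genes. Without AZD1480 replicate 1, 7 of 9 genes were lower and the median was -0.39, against 0.02 over all genes. Dusp6, Spred1 and Spred2 then lay under an unadjusted p of 0.05 in limma, 3 of 9 against 2.14% of all genes in that direction. Spred1, Spred2 and Etv5 had every remaining AZD1480 array below every vehicle array, 3 of 9 against 2.41% of all genes. These counts come from leaving out the array with the highest values, and the fit without it called 0 of the 19778 genes after adjustment.

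**Figure D1:**
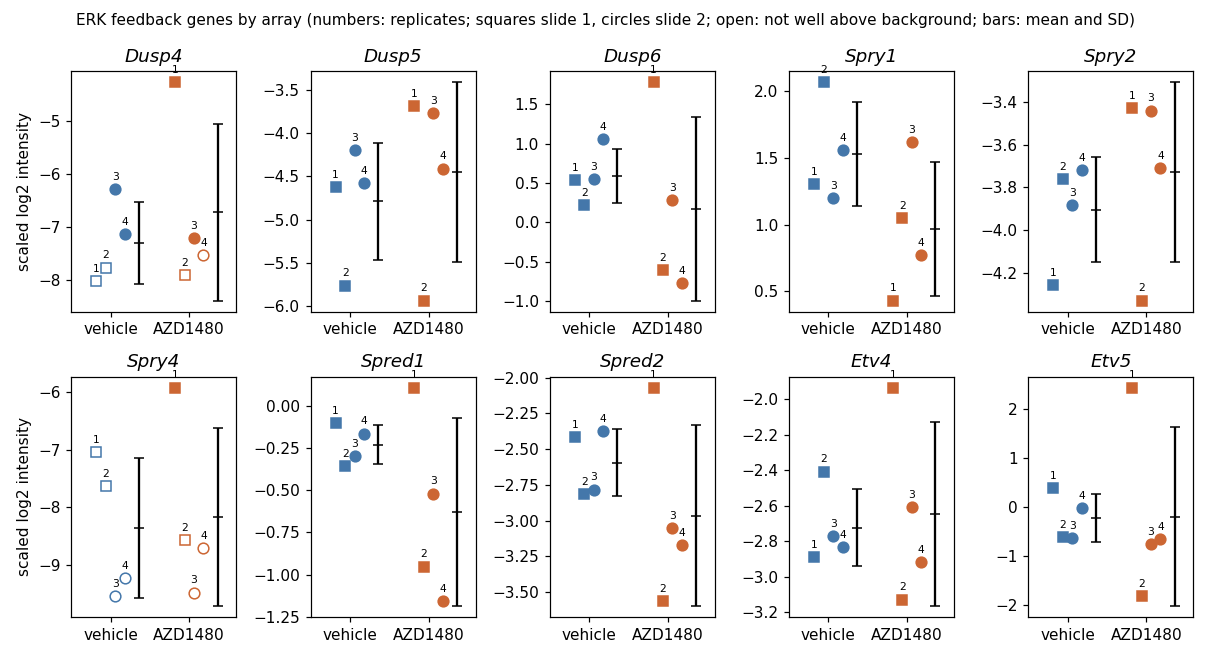
Scaled log2 intensity (log2 processed intensity minus the array's 75th percentile) of each feedback gene on each of the 8 arrays, 1 panel per gene with its own axis, with replicate numbers above the points, squares for slide 1 and circles for slide 2, open symbols where the probe was not well above background, and bars for the group mean and SD (n = 4). AZD1480 replicate 1 is the highest of the 8 arrays for 8 of the 9 tested genes and for Spry4, and the lowest for Spry1.

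Dusp6, the ERK-specific cytoplasmic phosphatase, was among the bright feedback genes. Its scaled log2 intensity in vehicle replicates 1 to 4 was 0.54, 0.22, 0.55 and 1.06, and in AZD1480 replicates 1 to 4 it was 1.78, -0.60, 0.28 and -0.76. The AZD1480 tumours thus held both the highest value and the lowest values, and they spread more widely (SD 1.17, n = 4) than the vehicle tumours (SD 0.34, n = 4). The processed intensities, which are not scaled between arrays, were 16193 in AZD1480 replicate 1 and 935 in AZD1480 replicate 4. The AZD1480 mean was lower by 0.42 on the log2 scale (limma, -0.42 ± 0.55 SE, 95% interval -1.68 to 0.85, adjusted p = 0.976). With AZD1480 replicate 1 left out the difference was -0.95 ± 0.31 (95% interval -1.69 to -0.22, limma adjusted p = 0.996). Here AZD1480 replicates 2 and 4 lay below all vehicle arrays, and replicate 3 lay between vehicle replicates 2 and 1 (two-sided exact permutation p = 0.0571, where 0.0286 is the smallest that 4 against 3 arrays allow). Its probe lies at chr10:98729985-98730044 on the plus strand of mm9.

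Dusp4 and Dusp5, the nuclear phosphatases, were dim. Dusp4 was well above background on 4 arrays, vehicle replicates 3 and 4 and AZD1480 replicates 1 and 3. Its scaled log2 intensity was -8.01, -7.76, -6.28 and -7.13 in the vehicle tumours and -4.25, -7.90, -7.20 and -7.52 in the AZD1480 tumours. AZD1480 replicate 1 was the highest array, and the other AZD1480 arrays lay within the vehicle range. With 4 of 8 readings not well above background, the differences of Dusp4 rest on dim values. The difference was 0.58 ± 0.81 with all arrays (limma adjusted p = 0.976) and -0.24 ± 0.43 without that array (limma adjusted p = 0.996). Dusp5 was measured at -4.62, -5.76, -4.19 and -4.57 in vehicle tumours and at -3.69, -5.93, -3.77 and -4.41 in AZD1480 tumours. The groups overlapped for Dusp5, and AZD1480 replicates 1 and 3 were the highest. Its difference was 0.34 ± 0.56 (limma adjusted p = 0.980) and 0.08 ± 0.58 without AZD1480 replicate 1 (limma adjusted p = 0.999). The probes lie on mm9 at chr8:35882045-35882104 for Dusp4 and chr19:53615682-53615741 for Dusp5, both on the plus strand.

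Spry1 was the exception among the feedback genes in AZD1480 replicate 1, where it had its lowest value. Sprouty proteins are induced by growth factor signalling and act against it upstream of RAF. The scaled log2 intensity of Spry1 was 1.30, 2.07, 1.20 and 1.56 in vehicle tumours and 0.43, 1.05, 1.62 and 0.77 in AZD1480 tumours. In 3 of 4 AZD1480 tumours it lay below every vehicle tumour, and AZD1480 replicate 3 lay above 3 of the vehicle tumours. The difference was -0.57 ± 0.30 (95% interval -1.27 to 0.14, limma adjusted p = 0.974), with an exact permutation p of 0.143 where 0.0286 is the smallest possible. Without AZD1480 replicate 1 it was -0.39 ± 0.29 (limma adjusted p = 0.996).

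Spry2 and Spry4 gave little. Spry2 read -4.26, -3.76, -3.88 and -3.72 in vehicle tumours and -3.43, -4.33, -3.44 and -3.71 in AZD1480 tumours, with AZD1480 replicate 2 below all vehicle tumours, and replicates 1, 3 and, by a narrow margin, 4 above them. Its difference was 0.18 ± 0.24 (95% interval -0.39 to 0.74, limma adjusted p = 0.976), and 0.08 ± 0.25 without AZD1480 replicate 1. Spry4 was well above background on AZD1480 replicate 1 alone, at -5.92. Its other AZD1480 readings of -8.56, -9.47 and -8.71, and the vehicle readings between -9.54 and -7.04, were not well above background. No fold is given for Spry4. On mm9 the Spry1 probe lies at chr3:37543403-37543462 (plus strand) and the Spry2 probe at chr14:106291845-106291904 (minus strand).

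Spred1 and Spred2 bind RAS and bring neurofibromin, a RAS inactivator, to the membrane. The brighter Spred1 probe read -0.10, -0.35, -0.30 and -0.16 in vehicle tumours, a narrow range, and 0.11, -0.95, -0.52 and -1.16 in AZD1480 tumours. AZD1480 replicate 1 was the highest of all 8 arrays and the other AZD1480 arrays were the lowest 3. With all arrays the difference was -0.40 ± 0.28 (95% interval -1.04 to 0.24, limma adjusted p = 0.974). Without AZD1480 replicate 1 it was -0.65 ± 0.19 (95% interval -1.09 to -0.20, limma adjusted p = 0.996), and the exact permutation test gave its lower limit for these arrays, p = 0.0286. The second Spred1 probe gave a like order of arrays, with -0.86, -0.93, -0.81 and -0.72 in vehicle tumours and -0.64, -1.51, -0.98 and -1.88 in AZD1480 tumours. Its difference with all arrays was -0.42 ± 0.27. The probes lie on mm9 at chr2:117005906-117005965 and chr2:117004952-117005011, both on the plus strand, and share the same RNA.

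Spred2 had the same layout of arrays. It read -2.42, -2.81, -2.78 and -2.37 in vehicle tumours and -2.07, -3.57, -3.05 and -3.17 in AZD1480 tumours. Again AZD1480 replicate 1 was the highest array and the other AZD1480 arrays the lowest 3. The difference was -0.37 ± 0.32 with all arrays (95% interval -1.11 to 0.37, limma adjusted p = 0.974). It was -0.67 ± 0.20 without AZD1480 replicate 1 (95% interval -1.14 to -0.19, limma adjusted p = 0.996, exact permutation p = 0.0286). The Spred2 probe lies at chr11:19922416-19922475 on the plus strand of mm9.

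**Figure D2:**
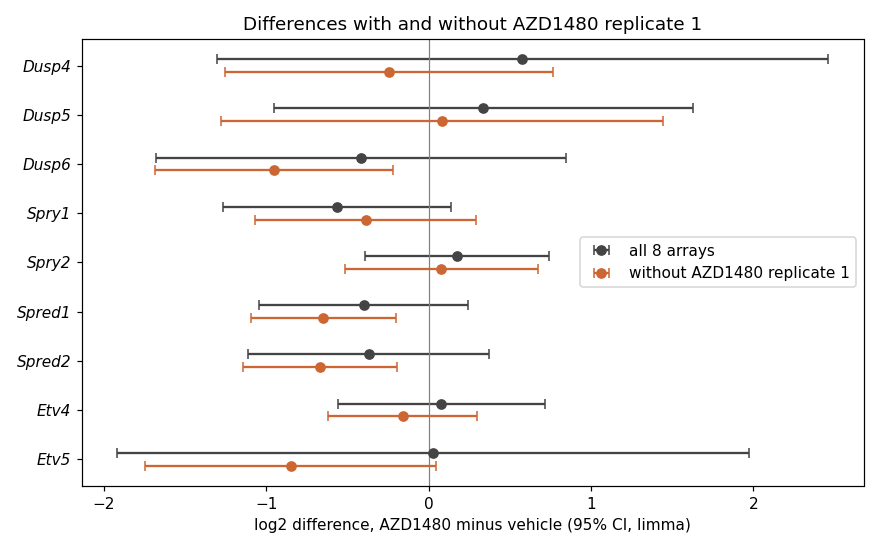
Log2 difference, AZD1480 minus vehicle, of each tested feedback gene with its 95% interval from limma, for all 8 arrays and without AZD1480 replicate 1. With all arrays every interval spans 0, and without AZD1480 replicate 1 those of Dusp6, Spred1 and Spred2 lie below 0 while no adjusted p is under 0.05.

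Etv5 had the largest spread between AZD1480 tumours of the 9 tested genes. It read 0.39, -0.61, -0.63 and -0.02 in vehicle tumours and 2.44, -1.81, -0.75 and -0.65 in AZD1480 tumours (SD 0.50 and 1.83, n = 4 each). AZD1480 replicate 1 was 3.51 above the mean of the other AZD1480 arrays, and those 3 were the lowest of all 8. In processed intensity, AZD1480 replicate 1 read 25563 and AZD1480 replicate 2, on the same slide, 1522. The group means were -0.22 for vehicle and -0.19 for AZD1480, a difference of 0.03 ± 0.84 (95% interval -1.92 to 1.97, limma adjusted p = 0.997). Without AZD1480 replicate 1 the difference was -0.85 ± 0.38 (95% interval -1.75 to 0.05, limma adjusted p = 0.996). AZD1480 replicates 3 and 4 were close to vehicle replicates 2 and 3, and the exact permutation p was 0.114.

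Etv4, the other PEA3 factor, had 2 probes. The brighter probe read -2.89, -2.41, -2.77 and -2.83 in vehicle tumours and -1.93, -3.13, -2.61 and -2.92 in AZD1480 tumours. Apart from AZD1480 replicates 1 and 2, which were the highest and lowest of the 8, the groups lay close together. The difference was 0.08 ± 0.28 (95% interval -0.56 to 0.71, limma adjusted p = 0.990) and -0.16 ± 0.19 without AZD1480 replicate 1 (limma adjusted p = 0.996). The dimmer probe read between -5.86 and -5.02 in vehicle tumours and -4.47, -7.09, -5.07 and -6.31 in AZD1480 tumours, with replicate 2 not well above background. Its difference was -0.19 ± 0.55, opposite in sign to that of the brighter probe and within the error of both. The Etv5 probe lies at chr16:22381387-22381446, and the Etv4 probes at chr11:101631057-101631116 and chr11:101631322-101631381, all on the minus strand of mm9.

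The same AZD1480 tumours were high or low for most of the feedback genes. AZD1480 replicate 1 was the highest of the 8 arrays for 8 of 9 tested genes, and 28.5% of all 19778 genes had their highest value there. Its gap to the mean of the other AZD1480 arrays was 3.51 for Etv5, 2.14 for Dusp6 and 0.40 for Spry2. For Dusp4, AZD1480 replicates 2 and 4 were not well above background, so the size of its gap is not measured. AZD1480 replicate 2, hybridised on the same slide, was below the vehicle mean for 9 of 9 genes and the lowest of the 8 arrays for 5. AZD1480 replicate 4 was below the vehicle mean for 7 of 9 and AZD1480 replicate 3 for 4 of 9.

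The marker values beside this spread are those of AZD1480 replicate 1. The summed level of the 6 tested granulosa and luteal markers (log2 of the summed scaled intensities) was 7.23 there, against 3.54 to 5.89 in vehicle tumours and a lowest AZD1480 value of 3.39. Fshr, Cyp19a1, Cyp11a1 and Lhcgr, which define granulosa and luteal cells, were not among the genes tested. Amhr2, whose promoter drives the transgene, read 6.83 in AZD1480 replicate 1 and 5.39 in vehicle replicate 1, and between -0.75 and 1.43 on the other 6 arrays. Most of the summed granulosa and luteal level in AZD1480 replicate 1 came from Amhr2. In vehicle replicate 1, the array with the next highest Amhr2, 4 of the 9 feedback genes were above the vehicle mean and 5 below it, with a median of -0.06 relative to it. That mean includes vehicle replicate 1 itself. Etv5 (0.39) and Spred1 (-0.10) had their highest vehicle value there, and Dusp4 (-8.01, dim), Spry2 (-4.26) and Etv4 (-2.89) their lowest. Whether Amhr2 and the feedback genes go together was not tested. The summed level of the 9 tested ciliated markers was 5.25 in AZD1480 replicate 1 and 6.42 to 6.98 in vehicle tumours. Nearly all of the sum in AZD1480 replicate 1 came from Tubb4b, which read 5.21 there, -0.64 from its vehicle mean. The other ciliated markers lay between -8.67 and -3.24 from theirs, the lowest being Dnah5, which was not well above background there. The summed macrophage level was 3.85 there and 5.05 to 5.25 in vehicle tumours. Of single markers, the macrophage genes Fcgr3 (-0.92 ± 0.24) and Mrc1 (-1.04 ± 0.31), the endothelial Vwf (-1.12 ± 0.32) and the epithelial Wfdc2 (-1.31 ± 0.51) had an unadjusted p under 0.05 in limma over all arrays, and none passed the adjustment. In the other marker lists no gene was under that p. Their smallest p were those of Cd2 (-0.76 ± 0.72) and Cd3d (-0.59 ± 0.57) of T cells, Dcn (-1.10 ± 0.59) and Lum (-1.21 ± 0.92) of fibroblasts, and Foxl2 (-0.10 ± 0.15) and Inhba (-0.76 ± 1.16) of granulosa cells. For ciliated cells they were Rsph4a (-1.42 ± 1.04) and Rsph1 (-1.08 ± 0.84), for adipocytes Fabp4 (-2.70 ± 1.24) and Cfd (-5.11 ± 2.71), and for ovarian tumour identity Epcam (-1.32 ± 1.00) and Ovgp1 (-2.30 ± 2.14). Without AZD1480 replicate 1, Rsph4a was at -0.24, Rsph1 at -0.14, Cd2 at 0.01, Cd3d at -0.13 and Ovgp1 at 0.11. In that fit Fcgr3 was at -0.81, Mrc1 at -0.97, Vwf at -1.21 and Wfdc2 at -0.88. Dcn and Lum were then at -0.85 and -0.54, and Foxl2 and Inhba at -0.13 and -1.55. Fabp4, Cfd and Epcam were at -2.24, -4.66 and -1.37. Cfd was well above background on 4 of 8 arrays. The part of these tissue differences in the values of the feedback genes was not tested. In whole tumours, fewer cells of a type and less RNA per cell cannot be told apart.

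**Figure D3:**
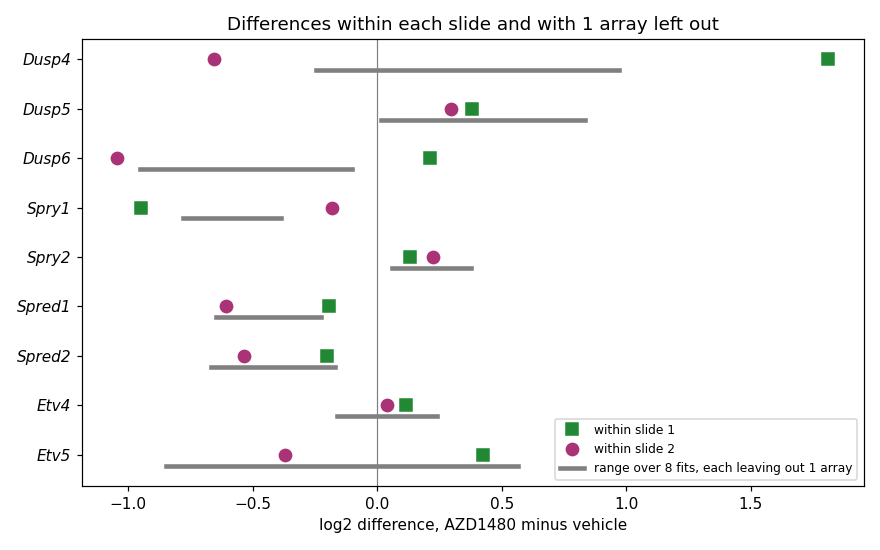
Log2 difference, AZD1480 minus vehicle, of each tested feedback gene within slide 1 (squares) and slide 2 (circles), each from 2 AZD1480 and 2 vehicle arrays, with a grey line for the range over 8 fits that each leave out 1 array. Dusp4, Dusp6 and Etv5 are positive on slide 1 and negative on slide 2, Dusp4 from readings mostly not well above background on slide 1, and the other 6 genes have the same sign on both.

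The slides, each scanned apart, held 2 vehicle and 2 AZD1480 arrays each. On slide 1, which holds AZD1480 replicates 1 and 2, the difference was 0.21 for Dusp6 and 0.42 for Etv5. On slide 2 it was -1.04 for Dusp6 and -0.37 for Etv5. The values of Dusp4, 1.81 and -0.66, have no settled size, since 3 of its 4 readings on slide 1 and 1 on slide 2 were not well above background. Spred1 and Spred2 were lower on both slides, at -0.19 and -0.20 on slide 1 and at -0.61 and -0.54 on slide 2. Spry1 was likewise lower on both, at -0.95 and -0.18. Dusp5, Spry2 and Etv4 were higher on both, with slide 2 values of 0.30, 0.22 and 0.04. Whether the differences themselves differ between slides was not tested.

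Other genes of the pathway were read from lists chosen by function. Of 9 tested Dusp phosphatases outside the feedback group, 0 were under an unadjusted p of 0.05 in limma, with 4 lower and 5 higher and a median of 0.06. The smallest p were those of Dusp22 (-0.25 ± 0.19) and Dusp2 (-0.42 ± 0.35), a phosphatase of lymphoid cells. In AZD1480 replicate 1 the mean of this list was -0.07 from vehicle, where the mean of the feedback genes was 1.00 and their median 0.79. Of the 9 other Dusp genes, 5 had their highest value in that array and 3 their lowest. Spry3 and Spred3 were not among the genes tested. Of 14 other Ets factors 0 were under that p, with 8 lower. The smallest p were those of Fli1 (-0.47 ± 0.25) and Ets1 (-0.26 ± 0.18), both Ets factors of blood and endothelial cells. In AZD1480 replicate 1, 1 of the 14 was at its highest and 3 were at their lowest. The 24 genes of the cascade itself, from the adaptors at the receptor to the kinases, gave 0 under that p. They were 8 lower and 16 higher, with a median of 0.08, and 12 were highest and 5 lowest in AZD1480 replicate 1. Without that array 10 were lower. The scaffold Ksr1 (0.38 ± 0.21) and the RAS inactivator Rasa1 (-0.23 ± 0.16) had the smallest p.

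Of 15 other ERK targets, 1 was under an unadjusted p of 0.05 in limma, and 0 passed the adjustment. That gene was Ccnd1, cyclin D1, which drives entry into the cell cycle. It was lower in every AZD1480 tumour than in every vehicle tumour, by -1.58 ± 0.31 (limma adjusted p = 0.957). Its value was -1.72 without AZD1480 replicate 1, and -1.23 and -1.93 on the slides. For Ccnd1, AZD1480 replicate 1 ranked 5 of the 8 arrays from the highest. Il17rd, another gene of this list, was also lower in every AZD1480 tumour than in every vehicle tumour (-0.95 ± 0.64, limma adjusted p = 0.974). Over all genes the groups did not overlap for 2.62%, in either direction. Of the 15 targets, 8 were lower with all arrays and 10 without AZD1480 replicate 1. In that array 4 had their highest value and 6 their lowest, and the mean of the list was -0.32 from vehicle. Phlda1 (0.14 ± 0.40), the receptor Epha2 (0.40 ± 0.25) and the early response factor Egr1 (-0.04 ± 0.53) were among those highest there, and Epha4 (-0.34 ± 0.38) among those lowest.

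**Figure D4:**
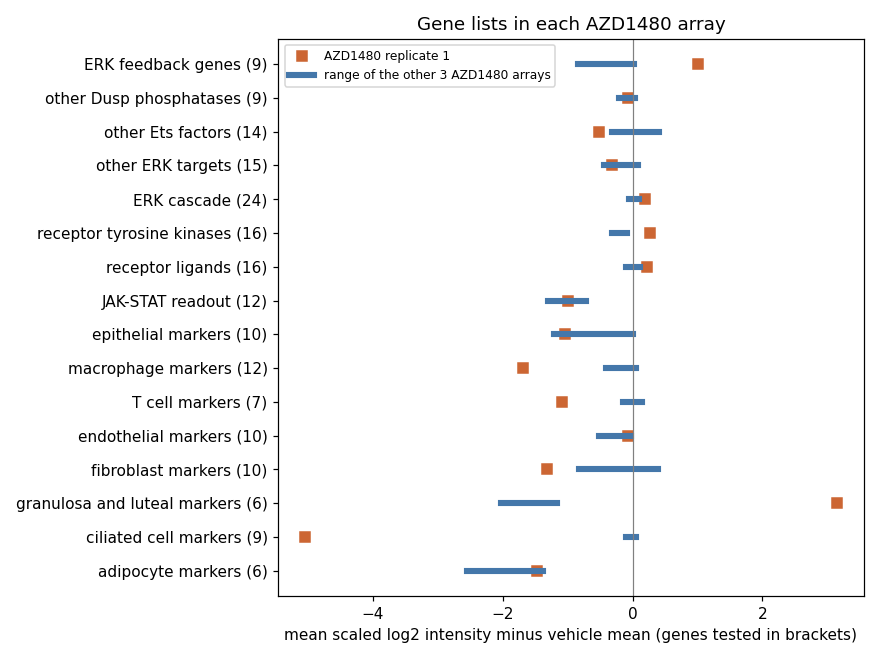
Mean scaled log2 intensity of each gene list in the AZD1480 arrays minus its vehicle mean, with the number of genes tested in brackets, a square for AZD1480 replicate 1 and a bar for the range of the other 3 AZD1480 arrays. The feedback genes lie at 1.00 in AZD1480 replicate 1 and between -0.84 and 0.02 in the others, while the JAK-STAT readout is at -0.996 there, within the range of the others. The mean of the feedback genes includes Dusp4, which was well above background on 2 of 4 vehicle arrays, and their median in AZD1480 replicate 1 was 0.79.

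Of 16 receptor tyrosine kinases, 8 were lower and 8 higher, with 0 under an unadjusted p of 0.05 in limma and a median of -0.03. Leaving out AZD1480 replicate 1, 13 were lower and the median was -0.23. In that array 8 of the 16 had their highest value and 3 their lowest. Egfr (-0.67 ± 0.29) and Met (-0.48 ± 0.25) had the smallest p. Of 16 receptor ligands, 4 were lower and 12 higher, and 0 were under that p. Without AZD1480 replicate 1, 9 ligands were lower, with a median of -0.05. Among these ligands 7 were highest and 3 lowest in AZD1480 replicate 1. Vegfa, the endothelial growth factor, was 1.17 ± 0.59 and Epgn, an EGF receptor ligand, -0.77 ± 0.41. Of 12 genes chosen as a readout of JAK-STAT signalling, 6 were under an unadjusted p of 0.05 in limma, all lower. Among all 19778 genes, 345 were under that p in this direction. This list, like the others, was chosen with earlier results of these data known. After adjustment 0 passed. Over the 12 genes, 9 were lower and 3 higher, with a median of -0.59. The 3 higher genes were Socs2 (0.87 ± 0.47), Pim1 (0.67 ± 0.40) and Socs1 (0.06 ± 0.21). Without AZD1480 replicate 1, 9 of the 12 were lower, with a median of -0.78. The interferon-induced genes Mx1 (-4.37 ± 0.56), Ifi44 (-3.51 ± 0.60) and Isg15 (-2.01 ± 0.54) and the STAT3 target Cebpd (-1.34 ± 0.25) were lower in every AZD1480 tumour than in every vehicle tumour. Mx1 was well above background on 5 of 8 arrays, so its value depends on dim readings. In AZD1480 replicate 1, 8 of 9 feedback genes were highest and Spry1 lowest. Of the 12 readout genes, 3 had their lowest value there, among them Ifi44 and Isg15, and 4 had their highest.

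Some genes had a pattern over the 8 arrays much like that of the feedback genes. Closest to the mean of the 9 tested genes were Tmcc3 (Pearson r 0.985, Spearman rho 0.905), Zfp330 (0.985 and 0.976) and Vps26b (0.978 and 0.976). In the 7 arrays other than AZD1480 replicate 1 these r values were 0.964, 0.959 and 0.943. Single genes had Rbm17 closest to Dusp6 (r 0.985), Rftn2 to Etv5 (0.987), Pla2g1b to Spred1 (0.972), Pml to Spred2 (0.977) and Npm1 to Spry1 (0.968). These are the highest of 19769 correlations over 8 arrays that share AZD1480 replicate 1, and they are given as a description.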

How the data were processed

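Total RNA of 8 tumours, 1 per mouse, was hybridised to 8 one-colour arrays. Agilent Feature Extraction 9.5.3 is named in the submitters' processing notes. Each spot has a processed intensity that, per the file headers, was background-subtracted, and that is not scaled between arrays. The deposited value table holds log2 values of the same arrays, with columns of nearly equal sorted values and a median of 8.36, and how they were offset is not stated in the labels or headers. It served as an alternative only.

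Log2 processed intensities were set relative to each array's 75th percentile over probes that are not controls. Probes well above background on at least 4 of 8 arrays were kept, and a gene was read from its brightest kept probe. AZD1480 was compared with vehicle in limma 3.58.1 (R 4.3.3; lmFit and eBayes, two-sided) on all 19778 genes, with Benjamini-Hochberg adjustment and a threshold of 0.05. The fit was also run on simulated data with independent normal noise for each gene. That simulation had no outlying array, so it does not show how the fit performs with an array such as AZD1480 replicate 1. SDs are over arrays, and an SE is the moderated one from limma. Exact permutation tests, two-sided, used the 70 ways of drawing 4 of 8 arrays, or the 35 of drawing 3 of 7.

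The genes and lists were chosen with earlier results of these data known. All 10 feedback genes are named. Of each other list, the genes at an unadjusted p under 0.05 are named, at most 4, or else the 2 of smallest p, and Ccnd1, Phlda1, Epha2, Epha4 and Egr1 in any case. Amhr2, Dnah5, Il17rd, Tubb4b, Socs1, Socs2 and Pim1 were singled out after their values were seen. Alternatives were median scaling, quantile normalization, normexp (offset 50), other filters on dim probes, the mean of a gene's probes, the deposited log2 table, slide, array weights, a replicate block and leaving out each array. Probe positions come from the array files (mm9), for which no gene annotation was used.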

Additional observations from a re-analysis of the deposited data

How the results depend on the processing

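No feedback gene and no gene at all passed the adjusted threshold in limma under any alternative run. The count of feedback genes lower in the AZD1480 group, 4 of 9 with all arrays, was 9 with array weights, 8 without AZD1480 replicate 1 and with slide as a covariate (a fit chosen after seeing the data), and 4 to 7 when each array was left out in turn. The count whose groups do not overlap, 0 with all arrays, was 3 in that added fit and 0 to 3 with an array left out: 3 without AZD1480 replicate 1, 1 (higher) without AZD1480 replicate 2 and 1 (lower) without AZD1480 replicate 3. Of all genes, 2.41%, 3.42% and 3.43% did so in those directions. Spry1, Spred1 and Spred2 kept their sign, ranging over the alternatives from -0.95 to -0.18, -0.655 to -0.19 and -0.70 to -0.17, though slide as a covariate, the replicate block and the filters cannot move their estimates. The sign turned for the other 6. Dusp4 became -0.66 within slide 2, -0.37 with array weights and -0.40 in the added fit, and ranged from -0.24 to 0.97 with an array left out. Dusp5 became -0.26 with array weights and -0.12 in the added fit, Spry2 -0.053 with array weights, and Dusp6 0.21 within slide 1. Etv4 became -0.055 with the mean of its probes, -0.12 with array weights and -0.17 in the added fit, and ranged from -0.16 to 0.24. Etv5 became -0.016 after quantile normalization, -0.37 within slide 2, -0.77 with array weights and -0.90 in the added fit, and ranged from -0.85 to 0.57. The cause was not tested beyond leaving out the arrays named. Same-numbered arrays correlated in their deviations from the group means at 0.36, 0.36, 0.13 and -0.06, so the numbers were not taken to pair the tumours. A fit with the replicate block called 0 genes and 0 feedback genes in limma, and 880 genes had an unadjusted p under 0.05 against 685 without it.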

Other observations

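Among the growth factors, neuregulin 1 (Nrg1), a ligand of the ERBB3 and ERBB4 receptors, and betacellulin (Btc), an EGF receptor ligand, were under an unadjusted p of 0.05 in limma once AZD1480 replicate 1 was left out, and were named after their values were seen. Nrg1 was then higher by 1.74 ± 0.25, with all 3 AZD1480 tumours above all vehicle tumours, and Btc was lower at -1.12 ± 0.36, with all 3 below. With all 8 arrays the values were 0.92 ± 0.75 for Nrg1 and -0.79 ± 0.44 for Btc. Neither passed the limma adjustment without that array (adjusted p = 0.405 for Nrg1 and 0.996 for Btc).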
